A study of Mus musculus with 7 samples.

Results

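The genes described here encode axon guidance ligands and their receptors: semaphorins of classes 3 to 7, netrins, Slits, Flrt proteins and ephrins, and the plexins, neuropilins, Robo, Unc5, Neo1 and Eph receptors. They were picked by a rule on gene symbols, written with earlier results of these data known (the rule names Flrt2 as a strong riser), and 65 of the 18468 genes in the count table met the rule, 37 of them ligands and 28 receptors, in 13 families. A further 8 names that the rule allows (Dcc, Epha5, Epha6, Ephb1, Robo3, Robo4, Sema5b and Unc5d) had no row under that name in the count table.

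RNA was sequenced from C3H10T1/2 cells, a mouse mesenchymal line of embryonic origin bought from a repository and used within 10 passages per the labels. The labels name no genetic change or added vector in either group, and all cells were kept without serum for 12 h and then treated for 48 h. The vehicle group had 0.02% DMSO (3 libraries, replicates 2 to 4), and the purmorphamine group had 2 μM purmorphamine, which activates Smo and thereby the Hedgehog pathway (4 libraries, replicates 5 to 8). No source states that the libraries came from separate cultures, so the p-values measure the spread between these libraries, which may be technical.

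Axon guidance proteins steer growing nerve fibers by attraction or repulsion, and the same proteins act in vessel growth, bone and connective tissue, where they control adhesion, shape and migration of cells. Class 3 semaphorins are secreted and bind neuropilins, which signal through plexins, whereas most other semaphorins bind plexins directly. Netrins bind Dcc, Neo1 and Unc5 receptors, Slits bind Robo receptors, Flrt proteins bind Unc5 receptors and latrophilins, and ephrins bind Eph receptor tyrosine kinases on neighboring cells.

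All 7 libraries had been resampled by the authors to about the same depth, 14337225 to 14342154 reads. Reads per library can thus be set side by side, apart from a small shift in composition. TMM factors were 0.978 to 0.986 for the vehicle libraries and 1.006 to 1.019 for the purmorphamine libraries. Ratios of unscaled means over vehicle therefore lie slightly above the fitted ones, as for Flrt2 at 3.45 and 3.34. The members took 0.361% to 0.373% of the reads with vehicle and 0.412% to 0.423% with purmorphamine. On the first principal component of all genes tested (79.8% of the variance) the treatments were apart, and on the second (5.98%) purmorphamine replicates 6 and 7 lay at opposite ends. Of the 54 members tested, replicate 6 gave the highest purmorphamine value for 26 and the lowest for 14, and replicate 7 for 12 and 19. Over all genes tested these shares were 31.2% and 30.7% for replicate 6 and 28.2% and 29.6% for replicate 7. The Hedgehog target Gli1 had 7 to 12 reads with vehicle and 2522 to 3171 with purmorphamine, and Ptch1 had 504 to 532 and 10296 to 11451, so the labels of all 7 libraries matched the treatment.

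Markers of other cell types were read in the same libraries. All 9 mesenchymal markers were tested, and their sum was 281787 to 288385 reads with vehicle and 261134 to 280432 with purmorphamine. The sum hides divergent members, since 5 of the 9 increased and 2 decreased, with Vim at 79220 to 81440 and 41359 to 43378 reads and Pdgfra at 10552 to 11060 and 18354 to 19275. The 5 neuron markers with a row of 8 summed to 228 to 256 and 120 to 158 reads, nearly all from Stmn2, with Tubb3, Syp, Rbfox3 and Elavl3 at 10 reads or fewer. The 6 endothelial markers summed to 781 to 821 and 1898 to 2154 reads, nearly all from Tek, while Cdh5 had 0 reads in every vehicle library and 21 to 26 with purmorphamine, and Pecam1, Kdr, Tie1 and Emcn had 5 reads or fewer. The glia marker S100b had 907 to 1037 reads with vehicle and 487 to 562 with purmorphamine, while Gfap had 10 reads or fewer. The 4 macrophage markers with a row of 5 summed to 55 to 60 and 55 to 76 reads, and the 2 epithelial markers with a row of 4 to 14 to 22 and 111 to 136, nearly all Cdh1. The markers Vim, Pdgfra, Tek, Cdh5, Cdh1, Stmn2 and S100b thus moved with the treatment, and their part in the results on the members was not tested. In bulk RNA, fewer cells of a type and less RNA per cell cannot be told apart.

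Of the 65 members, 54 had enough reads to be tested. The test was edgeR's quasi-likelihood test over 12388 genes, its p-values adjusted by Benjamini-Hochberg over all of them, and the threshold was the study's 0.2. By it, 21 members were increased by purmorphamine and 23 were decreased. Among all genes tested, 31.4% were increased and 31.1% were decreased, against 38.9% and 42.6% of the members tested. A change of at least 1.5-fold as well was found for 11 increased and 8 decreased members, together 35.2% of those tested, against 7.89% and 7.56% of all genes and 15.4% for both directions. Of the members tested, 11 changed at least 2-fold (20.4%), against 6.66% of all genes. The median size of the log2 fold change was 0.44 over the members and 0.20 over all genes, while the median with its sign was -0.13 for the members and 0.00 for all genes. In either direction 62.5% of all genes and 81.5% of the members tested passed, and these shares do not cover the 11 members with too few reads. Of the 44 members called, Efna2, Efna5, Efnb3, Ephb4, Ntn3 and Sema4g lost the call in at least 1 of 14 other fits, and of the 10 not called, Ephb3, Sema4b, Sema6a, Efna1 and Plxnb2 gained one in at least 1. For each of the called members named, leaving out some single library was enough to lose the call. The log2 fold change was then -0.16 for Efna2 without DMSO replicate 4 and 0.16 for Efna5 without DMSO replicate 2. It was -0.20 for Ntn3 and -0.24 for Sema4g without DMSO replicate 3. Ephb4 lost its call without DMSO replicate 4 and also under library totals alone.

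**Figure D1:**
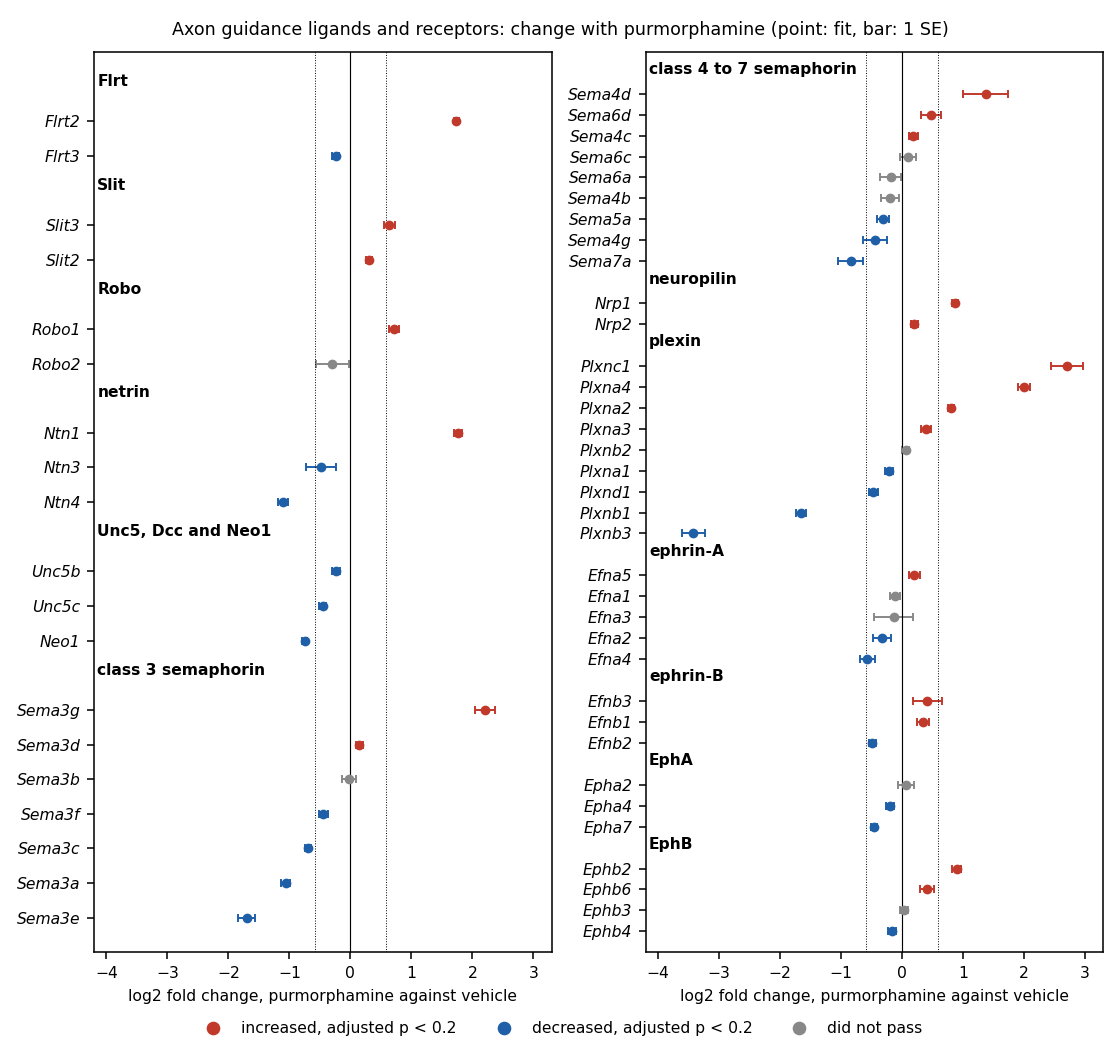
Log2 fold change of each of the 54 tested members with purmorphamine against vehicle, grouped by family, with 1 standard error (3 vehicle and 4 purmorphamine libraries). Red points increased and blue points decreased at an adjusted p under 0.2, grey points did not pass, and the dotted lines mark a change of 1.5-fold; values run from -3.42 for Plxnb3 to 2.70 for Plxnc1.

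In 37 of the tested members (68.5%) the reads of the purmorphamine libraries did not overlap those of the vehicle libraries, with 20 higher and 17 lower. Groups stood apart in this way in 49.5% of all genes tested (49.2% after TMM scaling, with the members again at 37), 29.1% with purmorphamine higher and 20.4% with purmorphamine lower. For 18 members the groups did not overlap, the change was at least 1.5-fold and the mean was at least 20 reads, and these 10 increased and 8 decreased members are given with their reads in every library. Because they were selected for groups that do not overlap, an exact permutation test of 3 libraries against 4 (two-sided) was nearly bound to give them its smallest value, p = 0.0286, and it adds nothing to that selection.

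**Figure D2:**
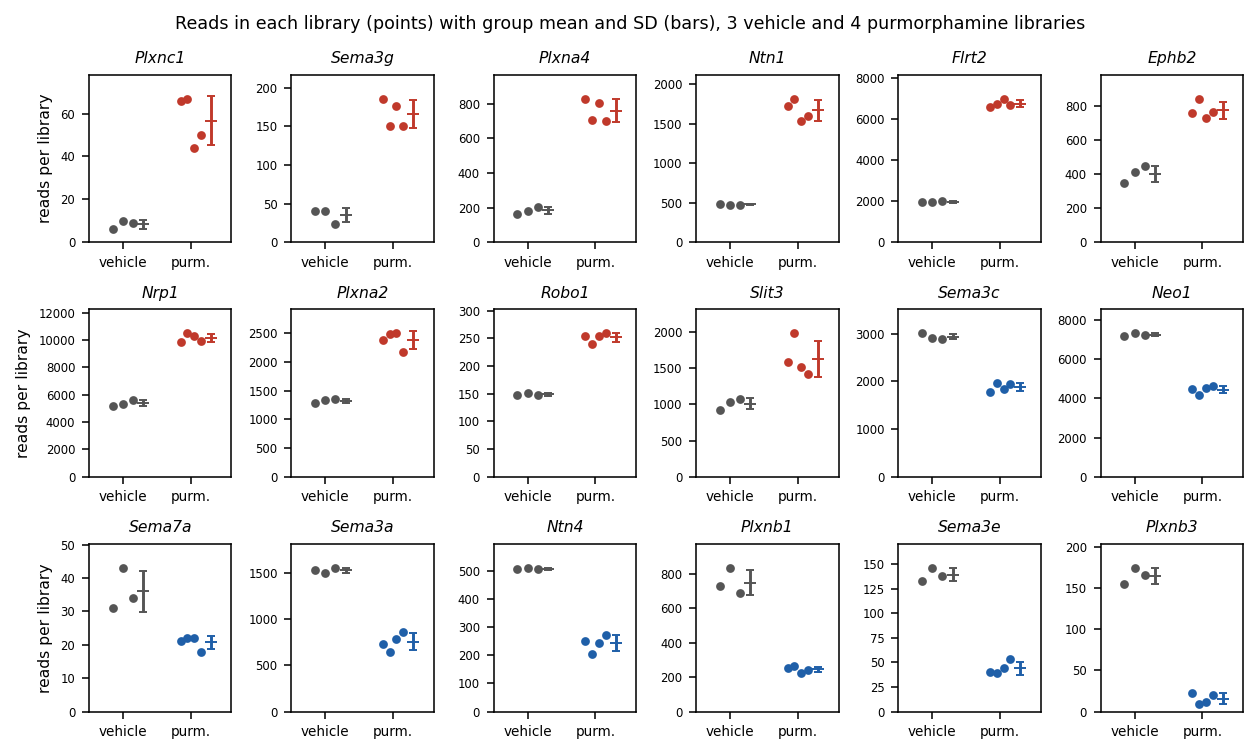
Reads per library for the 18 members with the clearest change, with each library as a point and the group mean and SD as bars, for vehicle (3 libraries) and purmorphamine (4 libraries). The upper 10 panels, through Slit3, lie higher with purmorphamine and the other 8 lie lower, and in no panel do the groups overlap.

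Among the ligands, the Flrt family had the largest increase in summed reads, which came from Flrt2. The rule named Flrt2 as a strong riser with these data known. Neither this rank nor the p-value of Flrt2 is therefore independent support. Flrt2, a transmembrane protein with leucine-rich repeats whose shed ectodomain repels cells bearing Unc5 receptors (ENSMUSG00000047414, GRCm38 chromosome 12 from 95692226 to 95785215), had 1949, 1943 and 2001 reads under vehicle and 6609, 6746, 7017 and 6716 in the purmorphamine libraries. The lowest purmorphamine library was thus far above the highest vehicle library, and the libraries within each group were close. Flrt2 rose from a mean of 1964 ± 31.9 reads (SD, n = 3) to 6772 ± 174 (SD, n = 4), 3.45-fold (log2 fold change 1.74, standard error, SE, 0.0470, edgeR adjusted p = 3.27e-14). Flrt3, a relative that also acts in fibroblast growth factor signaling, moved the other way, from 601, 560 and 596 reads to 520, 489, 509 and 531 (log2 fold change -0.24, edgeR adjusted p = 0.00373). Flrt1 had 4 to 9 reads in every library and was not tested. Per kb of exon, Flrt2 made up 67.7% ± 0.794 of the Flrt family's reads with vehicle (SD, n = 3) and 89.2% ± 0.452 with purmorphamine (SD, n = 4), and the reads of the 3 genes together rose 2.85-fold.

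The bases just before the gene start are printed for 4 of the members with the strongest changes that had a RefSeq promoter window, Flrt2 and Sema3g, which rose, and Sema3e and Plxnb3, which fell. All 4 lie on the plus strand and are given 5′ to 3′ in GRCm38.p6, ending at the base before the GENCODE M21 gene start. Capitals mark GGGCGG, the letters of the GC box bound by Sp factors, which reads CCGCCC where it lies on the opposite strand. The stretch before Flrt2 is at chr12:95691976-95692225 and held 0 GC boxes.
Flrt2: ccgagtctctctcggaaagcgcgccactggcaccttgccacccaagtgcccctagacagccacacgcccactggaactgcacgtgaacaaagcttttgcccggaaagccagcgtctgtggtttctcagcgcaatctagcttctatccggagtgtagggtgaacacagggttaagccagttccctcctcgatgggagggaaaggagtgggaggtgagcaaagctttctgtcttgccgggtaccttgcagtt

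The latrophilins, which are the other receptors of Flrt proteins, did not move as a group. Lphn1 did not pass the test (log2 fold change -0.02), Lphn2 rose slightly (0.20, edgeR adjusted p = 0.00143) and Lphn3 fell (-0.53, edgeR adjusted p = 1.33e-06). The Unc5 receptors that were tested both fell, Unc5b from 945 to 971 reads with vehicle to 726 to 899 with purmorphamine, and Unc5c from 3680 to 3778 to 2510 to 2990. Their log2 fold changes were -0.24 (edgeR adjusted p = 0.00557) and -0.45 (edgeR adjusted p = 5.36e-06). Unc5a had at most 1 read in any library.

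The netrins, secreted proteins related to laminins, changed places. Ntn1, the classical attractant of commissural axons (ENSMUSG00000020902, chromosome 11 from 68209364 to 68400823), had 489, 472 and 471 reads under vehicle and 1729, 1820, 1537 and 1594 under purmorphamine. The groups were far apart, and Ntn1 rose from 477 ± 10.1 to 1670 ± 128 reads (log2 fold change 1.76, SE 0.0636, edgeR adjusted p = 7.41e-13). Ntn4, a netrin that binds laminin in basement membranes (ENSMUSG00000020019, chromosome 10 from 93640681 to 93747207), had 506, 509 and 504 reads under vehicle and 250, 205, 242 and 272 under purmorphamine. It fell below every vehicle library in every purmorphamine library, from 506 ± 2.52 to 242 ± 27.9 reads (log2 fold change -1.11, SE 0.0827, edgeR adjusted p = 7.46e-09). Per kb of exon, Ntn4 was the leading netrin with vehicle at 63.8% ± 0.421 of the family, with Ntn1 at 35.8% ± 0.609. With purmorphamine Ntn1 was at 80.1% ± 2.55 and Ntn4 at 19.6% ± 2.77. These shares leave out Ntn3, for which no exon length was at hand. Ntn3 was low, with 19 to 33 reads with vehicle and 16 to 21 with purmorphamine, groups that overlapped (log2 fold change -0.48, edgeR adjusted p = 0.128), and Ntn5 had at most 5 reads.

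The Slits, secreted ligands of Robo receptors, rose together. Slit3 (ENSMUSG00000056427, chromosome 11 from 35121224 to 35708507), the leading Slit per kb of exon, had 925, 1025 and 1069 reads under vehicle and 1584, 1978, 1510 and 1414 under purmorphamine. Purmorphamine replicate 6 was the highest, and the other 3 were still above every vehicle library. The log2 fold change was 0.64 (SE 0.0890, edgeR adjusted p = 1.51e-05) and was 0.54 without replicate 6. Slit2 rose less, from 3075, 3190 and 3161 reads to 4143, 3791, 4251 and 3916 (log2 fold change 0.31, edgeR adjusted p = 7.19e-05), and Slit1 had at most 2 reads. Slit2 had more reads than Slit3 in every library. The order per kb thus rests on the annotated exon lengths, 25433 bases for Slit2 and 6067 for Slit3.

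Class 3 semaphorins included the strongest rise and the strongest fall among all ligands with full values. Sema3g (ENSMUSG00000021904, chromosome 14 from 31217860 to 31230352), a secreted semaphorin known for its binding to Nrp2, had 40, 40 and 24 reads under vehicle and 186, 150, 176 and 151 under purmorphamine. It was low with vehicle and rose 4.78-fold in mean reads (log2 fold change 2.21, SE 0.164, edgeR adjusted p = 7.19e-09). Sema3e (ENSMUSG00000063531, chromosome 5 from 14025276 to 14256689), which can signal through Plxnd1 without a neuropilin, had 133, 146 and 138 reads under vehicle and 40, 39, 44 and 53 under purmorphamine. Its mean was 3.16-fold lower with purmorphamine (log2 fold change -1.70, SE 0.132, edgeR adjusted p = 1.29e-08). The stretch before Sema3g, at chr14:31217623-31217859, held 1 GC box, and that before Sema3e, at chr5:14025026-14025275, held 2.
Sema3g: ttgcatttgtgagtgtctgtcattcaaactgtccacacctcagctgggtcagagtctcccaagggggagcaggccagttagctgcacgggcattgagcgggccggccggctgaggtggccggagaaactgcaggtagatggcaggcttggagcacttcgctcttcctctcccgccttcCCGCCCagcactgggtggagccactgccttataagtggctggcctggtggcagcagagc
Sema3e: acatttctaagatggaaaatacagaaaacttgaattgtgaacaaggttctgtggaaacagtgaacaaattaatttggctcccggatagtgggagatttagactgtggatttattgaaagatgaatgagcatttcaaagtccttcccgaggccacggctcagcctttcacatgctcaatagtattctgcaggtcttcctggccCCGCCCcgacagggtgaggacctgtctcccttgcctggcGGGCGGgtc

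Both more abundant relatives with full values also fell. Sema3a, the founding growth cone repellent and a ligand of Nrp1 that also acts on bone cells (ENSMUSG00000028883, chromosome 5 from 13125414 to 13602565), had 1526, 1497 and 1548 reads under vehicle and 733, 639, 786 and 857 under purmorphamine (log2 fold change -1.06, SE 0.0722, edgeR adjusted p = 2.24e-09). Sema3c, known for its part in outflow tract development (ENSMUSG00000028780, chromosome 5 from 17574281 to 17730268), had 3005, 2914 and 2891 reads under vehicle and 1770, 1971, 1840 and 1945 under purmorphamine (log2 fold change -0.69, SE 0.0475, edgeR adjusted p = 2.67e-09). In both genes the highest purmorphamine library was well below the lowest vehicle library. Sema3f, a ligand of Nrp2, fell by 0.44 on the log2 scale (edgeR adjusted p = 0.00012), Sema3d rose by 0.14 (edgeR adjusted p = 0.0563), and Sema3b, with 298 to 335 reads with vehicle and 241 to 381 with purmorphamine, did not pass the test.

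Class 3 semaphorins summed to 6464 to 6537 reads with vehicle and 4488 to 4763 with purmorphamine, a ratio of 0.708. Per kb of exon Sema3c remained the leading gene at 48.0% ± 0.918 of the class with vehicle and 40.9% ± 1.20 with purmorphamine, while Sema3g went from 0.891% ± 0.239 to 5.69% ± 0.815. On chromosome 5, Sema3d, Sema3a and Sema3e lie in a row, with 536 kb between Sema3d and Sema3a and 423 kb between Sema3a and Sema3e in GRCm38. Their log2 fold changes were 0.14, -1.06 and -1.70, so the outer neighbors differed in direction.

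The membrane-bound semaphorins of classes 4 to 7 were low. Their median size of change was 0.31 on the log2 scale, against 0.69 for class 3 semaphorins and 0.20 for all genes. Of 9 tested genes, 3 increased, 3 decreased and 3 did not pass. These counts were near the shares of all genes tested, 31.4% increased and 31.1% decreased. Sema4c, the leading gene of this group per kb of exon (ENSMUSG00000026121, chromosome 1 from 36548639 to 36558349), had 376, 381 and 365 reads under vehicle and 433, 495, 424 and 408 under purmorphamine (log2 fold change 0.19, SE 0.0746, edgeR adjusted p = 0.0492). The groups did not overlap, but the change was small. Sema7a, a GPI-anchored semaphorin that acts through integrins and Plxnc1 (ENSMUSG00000038264, chromosome 9 from 57940112 to 57962865), had 31, 43 and 34 reads under vehicle and 21, 22, 22 and 18 under purmorphamine (log2 fold change -0.84, SE 0.205, edgeR adjusted p = 0.00289). Sema4d, a ligand of Plxnb1, had 4, 7 and 7 reads under vehicle and 17, 20, 9 and 19 under purmorphamine. It entered the test only through the purmorphamine libraries, was tested in 10 of the 14 other fits, and passed (log2 fold change 1.37, SE 0.369, edgeR adjusted p = 0.0057) at a level so low that its groups were 2 reads apart. Sema6d rose by 0.48 on the log2 scale, Sema4g fell by 0.44 and Sema5a fell by 0.31, the last 2 with groups that overlapped. Sema4b, Sema6a and Sema6c did not pass, and Sema4a, Sema4f and Sema6b had at most 8 reads and were not tested.

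The ephrins, ligands bound to the membrane by a GPI anchor (ephrin-A) or a transmembrane segment (ephrin-B), changed by less than 1.5-fold in every case tested. Efnb2, a ligand of Ephb4 known from vessel development (ENSMUSG00000001300, chromosome 8 from 8617434 to 8661242), was the leading ephrin-B with 2342, 2291 and 2142 reads under vehicle and 1599, 1551, 1683 and 1829 under purmorphamine. All purmorphamine libraries were below all vehicle libraries, and the log2 fold change was -0.49 (SE 0.0566, edgeR adjusted p = 2.03e-06). Efnb1, the ephrin of the X chromosome mutated in craniofrontonasal syndrome, rose from 157, 145 and 181 reads to 209, 220, 199 and 218 (log2 fold change 0.35, edgeR adjusted p = 0.00777). Efnb3 had 21 to 25 reads under vehicle and 36, 35, 34 and 20 under purmorphamine, so that replicate 8 lay below every vehicle library (log2 fold change 0.41, edgeR adjusted p = 0.16). Efnb3 lost its call in 8 of the 14 other fits, those with DESeq2 and limma-voom among them.

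Efna1, the leading ephrin-A per kb of exon (ENSMUSG00000027954, chromosome 3 from 89271733 to 89281142), had 261, 259 and 262 reads under vehicle and 256, 276, 223 and 240 under purmorphamine, and did not pass the test (log2 fold change -0.11, SE 0.0849, edgeR adjusted p = 0.286). Its neighbors on chromosome 3 were read separately. Efna4, 52.2 kb away, fell (log2 fold change -0.57, edgeR adjusted p = 0.00156), and Efna3, between them, had 9 to 19 reads and did not pass. Efna5 rose by 0.20 (edgeR adjusted p = 0.0745) and Efna2 fell by 0.33 (edgeR adjusted p = 0.0674), both on the log2 scale.

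Among the receptors, the plexins held the highest and the lowest log2 fold change of the 54 tested members. The highest was that of Plxnc1, which had 6, 10 and 9 vehicle reads and entered the test only through its purmorphamine libraries. Plxnb3, a plexin-B receptor whose known ligand is Sema5a (ENSMUSG00000031385, chromosome X from 73757090 to 73772514), had 155, 174 and 165 reads under vehicle and 22, 9, 12 and 20 under purmorphamine. Its mean fell from 165 ± 9.50 to 15.8 ± 6.24 reads, 10.5-fold lower (log2 fold change -3.42, SE 0.185, edgeR adjusted p = 1.13e-10). Plxnb1, the receptor of Sema4d (ENSMUSG00000053646, chromosome 9 from 109095389 to 109119917), had 727, 834 and 689 reads under vehicle and 252, 264, 226 and 241 under purmorphamine. Its mean was 3.05-fold lower with purmorphamine (log2 fold change -1.66, SE 0.0771, edgeR adjusted p = 1.73e-11). The stretch before Plxnb3, the gene with the largest change of all members, is at chrX:73756853-73757089 and held 0 GC boxes.
Plxnb3: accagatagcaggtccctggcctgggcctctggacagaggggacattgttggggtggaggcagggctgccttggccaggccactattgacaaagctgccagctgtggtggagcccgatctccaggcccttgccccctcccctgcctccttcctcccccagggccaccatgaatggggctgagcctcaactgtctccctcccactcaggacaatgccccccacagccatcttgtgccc

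The most abundant plexin did not follow them. Plxnb2 (ENSMUSG00000036606, chromosome 15 from 89155549 to 89180788), a receptor of class 4 semaphorins and of angiogenin, had 3650, 3950 and 4028 reads under vehicle and 4379, 4412, 3826 and 4075 under purmorphamine. The groups overlapped and the gene did not pass the test (log2 fold change 0.06, SE 0.0545, edgeR adjusted p = 0.398). Plxnb2 made up 82.9% ± 1.27 of plexin-B reads per kb with vehicle and 95.1% ± 0.112 with purmorphamine, and the summed reads of the 3 plexin-B genes had a ratio of 0.926.

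Plexin-A receptors, which signal for class 3 semaphorins when joined to a neuropilin and for class 6 semaphorins directly, mostly rose. Plxna4 (ENSMUSG00000029765, chromosome 6 from 32144268 to 32588192), the co-receptor best known for Sema3a responses of sensory axons, had 164, 182 and 205 reads under vehicle and 830, 705, 807 and 699 under purmorphamine (log2 fold change 2.00, SE 0.0922, edgeR adjusted p = 1.5e-11). Plxna2 (ENSMUSG00000026640, chromosome 1 from 194618218 to 194816869) had 1278, 1332 and 1352 reads under vehicle and 2383, 2484, 2495 and 2166 under purmorphamine (log2 fold change 0.80, SE 0.0557, edgeR adjusted p = 2.87e-09). In both the groups were well apart. Plxna3 rose by 0.39 on the log2 scale (edgeR adjusted p = 0.00113), with purmorphamine replicate 6 at 710 reads and the others at 551 to 566. Plxna1 fell by 0.21 (edgeR adjusted p = 0.0114), and its groups overlapped. The plexin-A genes thus came closer to each other in level, since Plxna1 made up 59.6% ± 0.824 of their reads per kb with vehicle and 41.6% ± 1.56 with purmorphamine, and Plxna4 3.60% ± 0.268 and 11.8% ± 1.30. Plxna3 and Plxnb3 lie 557 kb apart on the X chromosome and moved in opposite directions.

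Plxnc1, the receptor of Sema7a (ENSMUSG00000074785, chromosome 10 from 94790866 to 94944835), had 6, 10 and 9 reads under vehicle and 66, 67, 44 and 50 under purmorphamine. Its ratio of 6.81 rests on a very low vehicle level, and the gene entered the test only through its purmorphamine libraries (log2 fold change 2.70, SE 0.267, edgeR adjusted p = 2.68e-07). Plxnd1, the receptor of Sema3e, fell from 597, 605 and 605 reads to 465, 479, 384 and 471 (log2 fold change -0.47, edgeR adjusted p = 4.19e-05). Ligand and receptor thus fell together for Sema3e and Plxnd1, whereas for Sema7a and Plxnc1 the ligand fell and the receptor rose.

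Neuropilins, co-receptors with short cytoplasmic tails that bind class 3 semaphorins and VEGF, both rose. Nrp1 (ENSMUSG00000025810, chromosome 8 from 128358604 to 128503363) had 5157, 5359 and 5593 reads under vehicle and 9861, 10489, 10311 and 9932 under purmorphamine. The libraries of each group lay close together, and the mean rose from 5370 ± 218 to 10148 ± 301 reads, 1.89-fold (log2 fold change 0.87, SE 0.0476, edgeR adjusted p = 1.32e-10). Nrp2 rose less, from 914, 986 and 959 reads to 1172, 1155, 1110 and 1103 (log2 fold change 0.21, edgeR adjusted p = 0.0029).

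Neo1, the netrin receptor that also binds repulsive guidance molecules and serves as a co-receptor for bone morphogenetic proteins (ENSMUSG00000032340, chromosome 9 from 58874687 to 59036441), had 7167, 7310 and 7250 reads under vehicle and 4449, 4181, 4517 and 4639 under purmorphamine. It fell from 7242 ± 71.8 to 4446 ± 194 reads, 1.63-fold lower (log2 fold change -0.75, SE 0.0462, edgeR adjusted p = 6.36e-10). Every tested member of the Unc5 and Neo1 family was lower with purmorphamine, and the family's summed reads had a ratio of 0.679. The repulsive guidance molecules Rgma and Rgmb, which are outside the symbol rule, rose by 0.56 (edgeR adjusted p = 3.61e-05) and 0.74 (edgeR adjusted p = 1.83e-08) on the log2 scale.

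Robo1, the more abundant of the 2 Robo genes with a row (ENSMUSG00000022883, chromosome 16 from 72308306 to 73046095), had 147, 151 and 148 reads under vehicle and 254, 240, 255 and 259 under purmorphamine. The spread within each group was small beside the difference, and the log2 fold change was 0.71 (SE 0.0855, edgeR adjusted p = 2.85e-06). Robo2, 846 kb away, had 9 to 18 reads in every library and did not pass the test.

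Among the Eph receptors that were tested, Ephb2 had the only change of at least 1.5-fold. Ephb2 (ENSMUSG00000028664, chromosome 4 from 136647539 to 136835988) had 351, 410 and 447 reads under vehicle and 760, 845, 732 and 766 under purmorphamine (log2 fold change 0.90, SE 0.0773, edgeR adjusted p = 4.62e-08). All 4 purmorphamine libraries were higher than the vehicle libraries. Ephb4, the leading EphB per kb of exon and the receptor of Efnb2 (ENSMUSG00000029710, chromosome 5 from 137350109 to 137378669), had 1209, 1258 and 1327 reads under vehicle and 1210, 1316, 1028 and 1133 under purmorphamine, with groups that overlapped (log2 fold change -0.16, SE 0.0672, edgeR adjusted p = 0.0648). Ephb6, which lacks kinase activity, rose by 0.41 on the log2 scale (edgeR adjusted p = 0.00982), and Ephb3, with 1104 to 1446 reads in all libraries, did not pass.

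Epha7, the leading EphA receptor (ENSMUSG00000028289, chromosome 4 from 28813131 to 28967499), had 3021, 3156 and 3013 reads under vehicle and 2263, 2224, 2411 and 2316 under purmorphamine (log2 fold change -0.46, SE 0.0461, edgeR adjusted p = 3.41e-07). The groups were clearly apart, as were those of Epha4, which fell by only 0.20 (edgeR adjusted p = 0.0249). Epha2, with 78 to 114 reads in all libraries, did not pass. Epha8 had 0 reads in all 3 vehicle libraries and 7, 3, 6 and 6 with purmorphamine, too few to be tested, and an observed 0 is compatible with as many as 3 reads, or 0.209 CPM. Epha1, Epha3 and Epha10 had at most 4 reads.

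In order of level, the receptors Neo1, Nrp1 and Plxnb2 were the 3 most abundant members per kb of exon with vehicle, at 831 ± 8.24, 549 ± 22.3 and 502 ± 25.9 reads per kb, followed by the ligand Sema3c at 411 ± 8.44. Neo1 and Sema3c stood clear of their neighbors. Nrp1 and Plxnb2 differed by less than the sum of their SDs. That does not leave their order unresolved, since both were read in the same libraries and both rose from DMSO replicate 2 to replicate 4. With purmorphamine the order was Nrp1 at 1037 ± 30.8, Flrt2 at 877 ± 22.5, Plxnb2 at 541 ± 35.8 and Neo1 at 510 ± 22.2 reads per kb, and the last 2 did not differ beyond their spread. Flrt2 was 8th with vehicle and 2nd with purmorphamine, and Ntn1 was 27th and 6th. Slit3, Ntn1 and Sema3c, in the 5th to 7th places with purmorphamine, lay at 267 ± 40.8, 266 ± 20.5 and 264 ± 13.1 reads per kb and could not be ordered. These levels rest on the exon lengths of GENCODE M21, which was not the annotation used for counting.

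**Figure D3:**
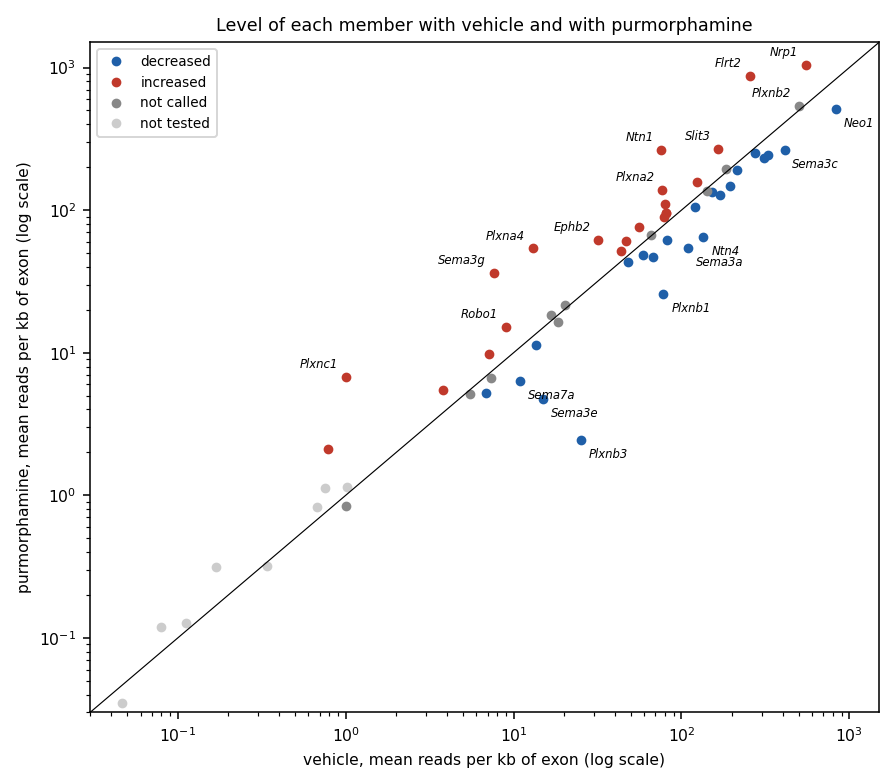
Mean reads per kb of exon for each member with vehicle (horizontal axis) and with purmorphamine (vertical axis), both on log scales, with the diagonal marking equal levels. Flrt2, Ntn1, Plxna4, Sema3g and Plxnc1 lie above the diagonal and Plxnb3, Plxnb1, Sema3e and Neo1 below it; members at 0 in either group and Ntn3, without an exon length, are not drawn.

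Summed over the genes of each group, ligands had 18288 to 18479 reads with vehicle and 22854 to 23369 with purmorphamine, and receptors had 33425 to 34974 and 35952 to 37318. The ratios of the means were 1.26 and 1.06, which became 1.22 and 1.02 after TMM scaling. The mean ligand sum went from 18383 to 23091 reads, and Flrt2 alone from 1964 to 6772. For receptors the mean sum went from 34451 to 36480 reads, and Nrp1 alone from 5370 to 10148. Each sum thus rose by less than that single gene, so neither ratio describes the other genes of its group. Among the families, the ratio was above 1.5 for Flrt at 2.85, netrins at 1.91, neuropilins at 1.78 and Robo receptors at 1.61. The Slits had a ratio of 1.36. The ratio was below 0.8 for the Unc5 and Neo1 receptors at 0.679, class 3 semaphorins at 0.708, EphA receptors at 0.779 and ephrin-B at 0.781. Plexins, with the strongest single changes in both directions, had a ratio of 1.12 as a family. Semaphorins of classes 4 to 7 had a ratio of 1.02, which became 0.985 after TMM scaling. These sums are dominated by the most abundant genes and were not tested.

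**Figure D4:**
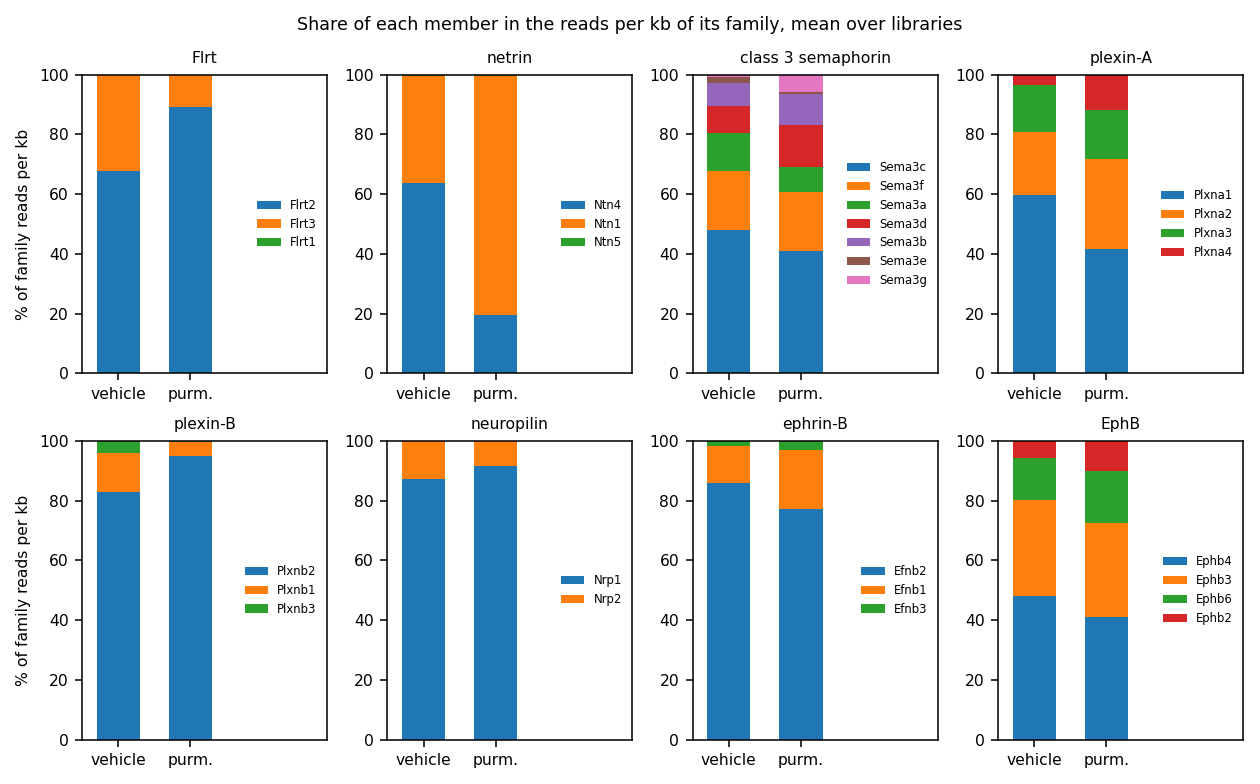
Share of each gene in its family's reads per kb of exon, as a stacked bar from 0% to 100% for vehicle (mean of 3 libraries) and purmorphamine (mean of 4 libraries). Ntn1 replaced Ntn4 as the largest share of the netrins (35.8% to 80.1%) and Flrt2 grew from 67.7% to 89.2% of the Flrt genes; Ntn3, without an exon length, is left out.

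Other genes of the same pathways, a list of 84 partners and cytoplasmic effectors, were read in the same fit. Of the 70 that were tested, 24 increased, 28 decreased and 18 did not pass, and 5 of the increases and 8 of the decreases were at least 1.5-fold. Of all genes tested, 31.4% increased, 31.1% decreased, and 7.89% and 7.56% did so by at least 1.5-fold, and the smaller groups below are to be read against the same shares. The list's median size of change, 0.23 on the log2 scale, was near that of all genes, 0.20, and below the 0.44 of the ligands and receptors. The semaphorin and plexin effectors held the largest changes, with 11 increased and 7 decreased of 24 tested. Mical2, a monooxygenase that oxidizes actin, rose from 830 to 899 reads with vehicle to 2863 to 3201 with purmorphamine (log2 fold change 1.75, edgeR adjusted p = 1.1e-13), and Mical1 rose as well (0.93, edgeR adjusted p = 8.09e-08). The receptor tyrosine kinase Met, which associates with plexin-B receptors, rose from 273 to 290 reads to 657 to 683 (1.22, edgeR adjusted p = 6.59e-11).

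L1cam, an adhesion molecule that joins Nrp1 in Sema3a responses, fell from 521 to 611 reads to 99 to 164 (log2 fold change -2.21, edgeR adjusted p = 6.55e-11). Rnd1, a small GTPase that binds plexins, fell from 254 to 280 reads to 67 to 88 (-1.81, edgeR adjusted p = 2.51e-10). Among the Slit and Robo effectors 4 increased and 9 decreased of 19 tested, with Srgap1, a GTPase-activating protein bound by Robo receptors, at -1.18 (edgeR adjusted p = 1.13e-05). Among the ephrin and Eph effectors 4 increased and 4 decreased of 13 tested, with the Rac activator Tiam1 at 1.02 (edgeR adjusted p = 4.54e-07) and the exchange factor Kalrn at -1.38 (edgeR adjusted p = 4.43e-13). The netrin and Dcc effectors numbered 2 increased and 5 decreased of 7 tested, none by 1.5-fold. Effectors thus moved in both directions in each group, as did all genes tested, so this sets none of the groups apart.

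None of the 4 stretches printed above, before Flrt2, Sema3g, Sema3e and Plxnb3, held the Gli consensus GACCACCCA, the letters that Hedgehog-activated Gli factors are known to bind. Windows of 300 bases, from 250 before to 50 after the RefSeq start, were searched on both strands for 56 of the 65 members with a RefSeq entry, 72 windows in all. The RefSeq start lay in a GENCODE M21 transcript of the gene for 58 of them. Some windows lay far from the GENCODE gene start, as for Robo1, whose window begins at 72662899 and whose gene begins at 72308306. Ntn1 and Plxna4 had no window. GACCACCCA was in 0 of the 72, against 0.253% of the 32851 windows of all genes and 0.215% of the 11180 windows of genes tested. The looser GACCNCCCA, which covers the former, was in 1 window, that of Ephb3, against 0.977% and 1.15%. GGGCGG was in 70.8% of the members' windows, 63.6% of the windows of increased members and 77.3% of those of decreased members, against 35.7% of all windows and 63.2% of those of genes tested. TATAAA was in 2.78% of the members' windows, against 13.6% and 7.09%. A match describes letters in a short window, and no binding was measured.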

How the data were processed

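The authors sequenced stranded libraries of total RNA depleted of ribosomal RNA, resampled the reads to equal numbers and deposited sense-strand read counts per gene. The submitters' processing notes name STAR 2.5.3a and mm9. All 7 sample columns were used. Purmorphamine was compared with vehicle on these deposited counts by edgeR 4.0.16 (R 4.3.3) with TMM factors, its filter on low counts (a minimum of 10 and a total of 15) and the quasi-likelihood test, without covariates. P-values were adjusted by the Benjamini-Hochberg method over all 12388 genes tested, and the threshold was the study's 0.2. The calculation was tested on simulated counts. SEs followed from each fold change and F statistic. A per-gene exact permutation test took mean log2 TMM-scaled counts with 1 added over the 35 assignments of the libraries. Ratios of means used the counts as deposited.

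Members and gene lists were chosen with earlier results of these data known. Library values were given for members with an adjusted p under 0.2, groups that did not overlap, a change of at least 1.5-fold and a mean of at least 20 reads, for Flrt2, and for the most abundant gene per kb of exon in each family. Gli1 and Ptch1 checked the labels. The partner and effector list and the marker lists for mesenchymal, neuron, endothelial, glia, macrophage and epithelial cells were read by counts, and some markers and the sum of the glia list are not reported here.

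Positions and exon lengths were from GENCODE M21 (GRCm38), matched by Ensembl identifier for 64 members (all but Ntn3), since the coordinates in the table were of another build. Promoter windows were from RefSeq (GRCm38.p6). As alternatives, the fit was repeated with other scaling and filters, with DESeq2 1.42.0, with limma-voom (limma 3.58.1), at stricter thresholds and leaving out each library. Leaving out purmorphamine replicates 6 and 7 together was chosen after seeing the data.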

Additional observations from a re-analysis of the deposited data

Results flagged for a closer look

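In 3 of the 54 tested members, 1 of the 4 purmorphamine libraries lay far from the others, by the gap to its nearest neighbor as a share of the group's range after TMM scaling. The share was 0.892 for Efnb3, where replicate 8 had 20 reads and the others 34 to 36. It was 0.939 for Plxna3, where replicate 6 had 710 reads and the others 551 to 566, and 0.869 for Plxnd1, where replicate 7 had 384 reads and the others 465 to 479. The 3 values came from 3 different libraries, and chance alone gives about 2.7 such values among 54 genes. Without the library that stood apart, the log2 fold change was 0.58 for Efnb3, 0.30 for Plxna3 and -0.40 for Plxnd1.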

How the results depend on the processing

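Of the 44 members called, 38 kept their call and direction in every one of the 14 other fits in which they were tested (13 for Plxnb3 and Plxnc1, 10 for Sema4d), 6 (Efna2, Efna5, Efnb3, Ephb4, Ntn3 and Sema4g) lost the call in at least 1 and 0 changed direction. Of the 10 members not called, 5 gained a call in at least 1 fit. All 18 members given in full kept call and direction where tested. Their selection in these same libraries, by adjusted p, fold change and groups that do not overlap, made that likely, and it adds little. The share of all genes that kept a call is not given here. Requiring 1.5-fold took the increased and decreased members from 21 and 23 to 11 and 8, all genes from 3887 and 3854 to 977 and 936, and the partners and effectors from 24 and 28 to 5 and 8, as fewer genes meet a stricter rule. Over the fits that omit 1 library, 19 to 22 members increased and 21 to 24 decreased. Without purmorphamine replicates 6 and 7, a choice made after seeing the data, these counts were 20 and 24.

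The sign turned only in members that did not pass the test. Over the fits that omit 1 library these ran from -0.054 (without DMSO replicate 2) to 0.18 for Epha2, from -0.017 (without purmorphamine replicate 6) to 0.10 for Ephb3, from -0.36 to 0.016 (without DMSO replicate 3) for Sema4b, from -0.40 to 0.018 (without DMSO replicate 4) for Efna3 and from -0.11 to 0.092 (without purmorphamine replicate 7) for Sema3b, which was also at 0.023 without DMSO replicate 4. Under library totals alone Sema3b was at 0.021, and without purmorphamine replicates 6 and 7 Sema3b was at 0.022 and Sema6c at -0.060. The cause was not tested. Library totals in place of TMM moved the median of all genes by 0.05 on the log2 scale. No paired analysis was possible because the vehicle and purmorphamine libraries share no replicate number. The 11 untested members had at most 9 reads in any library, and low depth and low expression cannot be told apart there.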
